A study of Mus musculus with 10 samples.

Results

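Matrix proteases and their inhibitors are taken here as 9 genes: the matrix metalloproteinases Mmp2, Mmp9 and Mmp14, the tissue inhibitors of metalloproteinases Timp1, Timp2 and Timp3, the plasminogen activators Plat (tissue type) and Plau (urokinase type), and the urokinase receptor Plaur. They were chosen by symbol, and all 9 were found among the 25239 symbols of the count table. Total RNA was sequenced from 10 libraries. The cell line MLTC-1, which stems from a Leydig cell tumour of the mouse, was given DMSO, the solvent (n = 3), or hymeglusin, an inhibitor of HMG-CoA synthase (n = 3). Leydig cells make testosterone in the tissue around the testis tubules, and primary ones were taken without any treatment at 2 months (n = 2) and 24 months (n = 2) of age. The labels give no dose, duration, mouse strain, genotype or isolation method, nor if the replicates came from different cultures or mice, so each p-value reflects only how far the given libraries differ, and that may be technical variation.

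Matrix metalloproteinases cut collagens and other matrix proteins, are made as inactive precursors, and are blocked by the Timp proteins. Mmp14 sits in the cell membrane and activates the precursor of Mmp2 in a complex that contains Timp2. Plat and Plau convert plasminogen to plasmin, a broad protease, and Plaur holds Plau at the cell surface. In the testis these enzymes are best known for their part in tubule remodelling and germ cell movement.

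Library totals ran from 17407456 to 34787330 counts, so that 3 counts, the limit that a count of 0 allows, correspond to 0.0873 to 0.199 CPM (counts scaled to a common library size). These limits and the counting intervals below cover counting error only. All 8 Leydig cell markers checked, among them Star, Cyp11a1 and Lhcgr, were detected in every library. Their levels differed, with Hsd3b6 at 1.71 CPM with DMSO and 3075 CPM at 2 months, and Hsd3b1 at 2442 and 2016 CPM. The 24-month pair stood further apart than the other replicate pairs (chi-square per degree of freedom 134, against 18.9 at 2 months and 3.44 to 7.67 in MLTC-1), and results at 24 months are therefore given with and without each of these libraries where it matters. Markers of other cells were near 0 in MLTC-1 for germ cells (11 genes, summed 4.36 to 5.30 CPM with DMSO), but the primary preparations held them at 1985 and 2752 CPM in the young and 5622 and 9928 CPM in the old libraries. In bulk samples such as these, fewer cells of a type and less RNA per cell cannot be told apart.

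The promoters of Timp2, Timp3 and Plaur are shown because Timp2 was the most abundant inhibitor in the primary cells and Timp3 in the line, and Plaur was higher in the line. Sequences are from RefSeq on GRCm38.p6, cover the 250 bases before the start site, and were given for 5 of the 9 genes. The 9 genes span, on this build, bases 92827290 to 92853421 of chromosome 8 (Mmp2), 164940326 to 164955850 of chromosome 2 (Mmp9) and 54431598 to 54442456 of chromosome 14 (Mmp14). The inhibitor genes span bases 20870166 to 20874737 of chromosome X (Timp1), 118301061 to 118355411 of chromosome 11 (Timp2) and 86300412 to 86349505 of chromosome 10 (Timp3). Plat spans 22757722 to 22782848 of chromosome 8, Plau 20836662 to 20843388 of chromosome 14 and Plaur 24460937 to 24475970 of chromosome 7. The printed promoters lie at chr11:118355412-118355661 on the minus strand for Timp2, and on the plus strand at chr10:86300162-86300411 for Timp3 and chr7:24462233-24462482 for Plaur, whose window lies before a start site inside the annotated span of the gene. Capitals mark GC boxes (GGGCGG or its reverse complement CCGCCC) and, in Plaur, also the AP-1 motif TGACTCA.
Timp2: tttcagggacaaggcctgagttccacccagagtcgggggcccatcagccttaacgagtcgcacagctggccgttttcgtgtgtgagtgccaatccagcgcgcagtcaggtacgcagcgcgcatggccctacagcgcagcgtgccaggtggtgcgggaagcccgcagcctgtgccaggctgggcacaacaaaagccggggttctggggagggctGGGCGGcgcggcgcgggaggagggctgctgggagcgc
Timp3: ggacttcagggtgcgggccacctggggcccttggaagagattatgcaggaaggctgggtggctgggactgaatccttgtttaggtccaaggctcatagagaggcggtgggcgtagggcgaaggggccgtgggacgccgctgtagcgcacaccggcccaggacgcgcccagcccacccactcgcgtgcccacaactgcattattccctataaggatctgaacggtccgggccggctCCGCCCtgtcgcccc
Plaur: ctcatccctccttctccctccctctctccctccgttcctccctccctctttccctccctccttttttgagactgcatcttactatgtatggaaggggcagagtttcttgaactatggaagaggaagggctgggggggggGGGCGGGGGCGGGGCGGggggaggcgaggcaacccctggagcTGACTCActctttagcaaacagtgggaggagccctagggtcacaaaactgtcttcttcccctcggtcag

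Both Timp promoters are rich in G and C, at 68.0% for Timp2 and 65.6% for Timp3, with 21 and 18 CpG dinucleotides against a median of 6 over all 32851 promoters of this length. Plaur has 59.6% and 6. Searched on both strands, the GC box was found in all 5 promoters (also Mmp14 and Timp1) and in 32.7% of all promoters. The AP-1 motif TGANTCA was found in 1 of 5, that of Plaur, 69 bases before the start site, and in 6.75% of all. The CRE motif TGACGTCA was found in 0 of 5 and in 1.55% of all. Of the 3 GC boxes of Plaur, 2 overlap by 1 base, and none overlaps the AP-1 motif. A match is a description of these letters and not a measured binding site.

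In each of the 4 groups a tissue inhibitor was the most abundant member per length, Timp2 in the primary cells and Timp3 in the line, so that the composition of the inhibitors differed between the line and the primary cells. Timp2, an inhibitor that also takes part in Mmp2 activation, had 37427 and 34272 counts in the 2-month libraries and 21847 and 24798 at 24 months. In MLTC-1 it had 0, 0 and 1 counts with DMSO and 0, 0 and 3 with hymeglusin. All 4 primary libraries were thus far above all 6 of the line, whose values lay at or under the limit of 3 counts. The ratio of 2-month primary cells to DMSO-treated MLTC-1 was 126539, with a 95% exact counting interval of 22710.5 to 4998083 that reflects the single count in the line. Timp2 was tested in that comparison only through its level in the primary cells.

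Levels of different genes were compared per kilobase of the longest transcript. CPM were scaled by the trimmed mean of M-values (TMM) over all 10 libraries. Division by length does not remove a length trend that differs between libraries. On this scale Timp2 stood at 392 ± 36.8 CPM per kilobase at 2 months (mean ± SD, n = 2), against 50 ± 4.14 for Timp3 and 37.7 ± 0.609 for Timp1. In DMSO-treated MLTC-1, Timp3 led at 44.2 ± 1.25 (n = 3), Timp1 stood at 14.5 ± 1.11 and Timp2 at 0.00351 ± 0.00608 CPM per kilobase. Timp2 therefore made up 81.3% and 82.1% of the summed Timp1 to Timp3 level at 2 months and 76.1% and 77.8% at 24 months. In the line, Timp3 made up 73.9% to 76.7% with DMSO and 66.8% to 72.1% with hymeglusin. The summed inhibitor level was 479.7 ± 41.4 CPM per kilobase at 2 months and 58.7 ± 1.78 in the DMSO group. Relative to Mmp14, the most abundant protease of the set in the primary cells, it was 13.8 ± 0.424 times as high at 2 months, 22.7 ± 6.08 at 24 months, 5.34 ± 0.221 with DMSO and 4.59 ± 0.167 with hymeglusin.

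**Figure D1:**
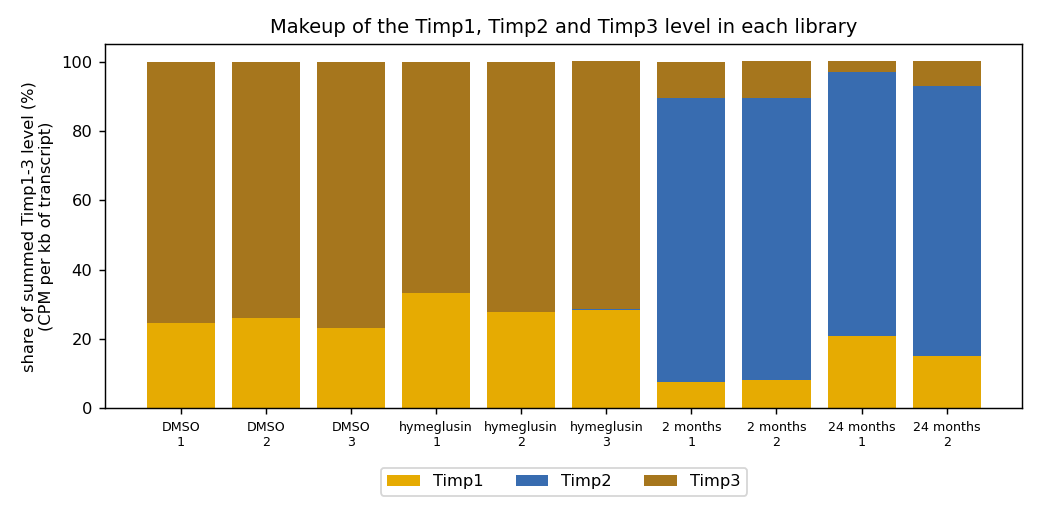
Share of Timp1, Timp2 and Timp3 in their summed level (CPM per kilobase of transcript, in percent) in each of the 10 libraries. Timp2 takes 76.1% to 82.1% in the 4 primary libraries, and Timp3 takes 66.8% to 76.7% in the 6 MLTC-1 libraries.

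Timp3, which binds to the matrix after secretion, was the inhibitor with the most similar level in line and primary cells. On the scale of all 10 libraries it stood at 236 ± 19.6 CPM at 2 months, 209 ± 5.89 with DMSO, 196 ± 8.40 with hymeglusin and 96.9 ± 33.3 at 24 months. In that order, the DMSO and hymeglusin libraries overlapped on this scale and the other neighbouring groups did not. Of the annotated exon bases of Timp3, 21.3% are shared with Syn3 on the other strand, and with the strand setting of the counting not given, reads there cannot be assigned to 1 gene. Timp1, a secreted inhibitor, was ordered 24 months (70.9 ± 33.2 CPM), 2 months (33.3 ± 0.538), hymeglusin (15.6 ± 1.58) and DMSO (12.8 ± 0.980), with no overlap between neighbours on this scale.

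Among the proteases, Mmp14 was highest at 2 months (113 ± 13.0 CPM), then at 24 months (66.5 ± 33.7), with hymeglusin (41.8 ± 1.09) and with DMSO (35.6 ± 1.65). The 24-month libraries, at 90.3 and 42.6 CPM, overlapped those with hymeglusin, at 40.7 to 42.9 CPM. The gelatinases were scarce in every group. Mmp2 had 0 counts in the 3 DMSO libraries, 0, 4 and 0 with hymeglusin, 6 and 16 at 2 months and 30 and 8 at 24 months. Mmp9 had 22, 5 and 15 counts with DMSO, 13, 29 and 31 with hymeglusin, 3 and 0 at 2 months and 0 and 16 at 24 months. Mmp9 groups that are neighbours in level all overlapped.

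The urokinase pair had the opposite distribution to Timp2. Plau stood at 38.2 ± 1.76 CPM with hymeglusin, 24.9 ± 1.31 with DMSO, 1.39 ± 0.661 at 24 months and 0.483 ± 0.214 at 2 months, with no overlap between neighbours. Plaur stood at 24.5 ± 1.64, 20.2 ± 0.465, 1.81 ± 0.626 and 1.79 ± 0.286 CPM in the same order, and only the 2 ages overlapped. Per kilobase, Plau was 1.02 to 1.09 times Plaur in the DMSO libraries and 0.143 and 0.343 times Plaur at 2 months. Plat was low throughout, with 0, 0 and 2 counts with DMSO, 7, 6 and 6 with hymeglusin, 8 and 9 at 2 months and 10 and 41 at 24 months.

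**Figure D2:**
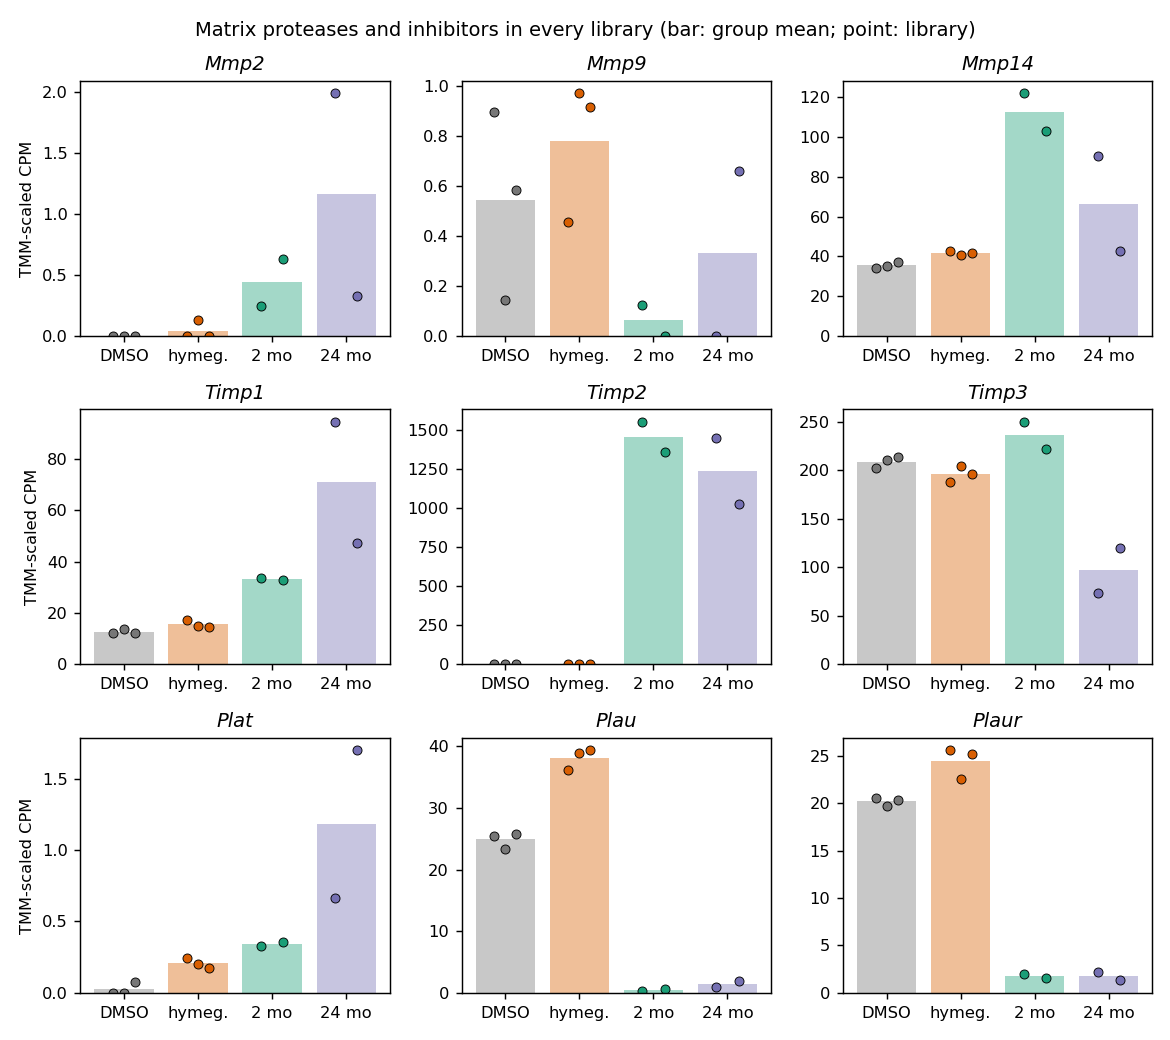
TMM-scaled CPM of the 9 genes in each library (points) with the group mean (bars), one panel a gene, each with its own axis from 0. Timp2 has 0 to 3 counts in the 6 MLTC-1 libraries and 1026 to 1551 CPM in the 4 primary ones, while Plau and Plaur have 19.7 to 39.4 CPM in the line and 0.331 to 2.25 CPM in the primary cells.

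DMSO-treated MLTC-1 was next set against the 2-month primary cells by edgeR's quasi-likelihood test, with adjustment over all genes tested. Line, culture, mouse and preparation differ together here and cannot be told apart. The 7 fibroblast and stromal markers summed to 887 and 905 CPM at 2 months and 1.59 to 1.98 CPM with DMSO, where Dcn and Tcf21 were at 0, and the 11 macrophage markers to 22.4 and 24.0 and to 0.546 to 1.10 CPM. The part of such cells in these differences was not tested. Of 16092 genes tested, 34.4% were called higher and 48.5% lower in the line (82.8% in either direction) at an adjusted p below 0.05. Of the 9 members, 7 passed the count filter (not Mmp2 and Plat), and 3 were called higher and 4 lower, so being called is the background here and the size is what the values add. Plau stood at 0.338 and 0.660 CPM at 2 months and at 25.7, 23.2 and 26.0 CPM in the line, and Plaur at 2.03 and 1.65, then 20.7, 19.5 and 20.5 CPM, on the scale of these 5 libraries. The groups were far apart for both genes. Plau was 49.4-fold higher in the line (log2 5.63, SE 0.242, adjusted p = 6.02e-08) and Plaur 11.0-fold higher (3.46, SE 0.176, adjusted p = 1.69e-07). Mmp14 stood at 124 and 108 CPM at 2 months and 34.4, 34.8 and 37.7 CPM in the line, lower in each library of the line (log2 -1.70, SE 0.0819, adjusted p = 1.19e-07). Timp2 was lower, as its counts show (adjusted p = 8.82e-11). Timp3, at 255 and 231 CPM and then 204, 208 and 215 CPM, was lower by a small amount without overlap (-0.22, SE 0.0627, adjusted p = 0.00983). The call of Timp3 was lost without 2-month replicate 1 (adjusted p = 0.0626) and in 1 fit of all 10 libraries (0.289, range over its alternatives 0.000482 to 0.289).

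Timp1 stood at 34.3 and 34.2 CPM at 2 months and at 12.4, 13.8 and 12.2 CPM in the line, which is lower (log2 -1.42, SE 0.105, adjusted p = 1.8e-06). However, the median of all genes in its decile of transcript length, the shortest, was -1.84. With an offset that removes a smooth trend on transcript length from each library, 42.1% of genes were called higher and 41.8% lower. Under this offset Timp1 was higher in the line (0.57, adjusted p = 0.00101). In the other 14 of its 15 alternatives Timp1 was lower in the line, as in the main fit, with log2 values down to -1.56. The adjusted p of Timp1 over all 15, in either direction, ran from 2.42e-26 to 0.00101. Its direction between line and primary cells therefore depends on how transcript length is treated. Mmp9 had 42 counts over the DMSO libraries and 3 over the 2-month ones, a ratio of 7.93 (95% exact counting interval 2.53 to 40.0). It passed the filter only through its level in the line, as did Plau. Its call (adjusted p = 0.0397) was lost without 2-month replicate 2 (adjusted p = 0.154), with DESeq2 (0.0571) and in 1 fit of all libraries (0.0791, range 0.00712 to 0.154). Of the genes the filter left out, Mmp2 was at least 12.9-fold higher in the primary cells, against the limit of 3 counts over the DMSO group. Bounds of this kind, here and below, take the higher count as exact, so they are not the lower end of an interval. Plat was 15-fold higher in the primary cells (95% exact counting interval 3.56 to 134).

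The rest of the pathway was followed through lists of genes. Their counts stand beside 34.4% of all genes called higher and 48.5% called lower. Of 7 tested other metalloproteinases, 2 were higher in the line and 5 lower, and of 8 tested inhibitors and activators 1 was higher and 6 lower. Of these, 4 and 2 passed the count filter only through the primary cells. Mmp11 (stromelysin-3) was higher (log2 2.67, SE 0.15), as was Mmp23 (1.37, SE 0.393). Mmp15 was lower (-4.50, SE 0.379), and Mmp16, with 0 counts in the DMSO libraries, was at least 62.4-fold higher in the primary cells. Mmp19 fell from 34.9 ± 2.80 CPM at 2 months to 1.51 ± 0.577 in the line (-4.55, SE 0.234). Furin and Pcsk5, convertases that can activate Mmp14, were lower (-1.95, SE 0.0788, and -4.75, SE 0.0984). Spock2, a proteoglycan, was lower (-5.42, SE 0.129). Bsg, an inducer of metalloproteinases, was higher, at 672 ± 8.57 CPM at 2 months and 1346 ± 10.4 CPM in the line. Of 14 tested genes of the plasminogen system 8 were higher and 6 lower. Of these 14, 4 passed the count filter only through the primary cells, Serpine2 and Serpinf2 among them, and 1 only through the line. The thrombin receptor F2r (5.68, SE 0.12), the serpin Serpinb6a (1.10, SE 0.0614) and Eno1 (4.21, SE 0.0698), an enolase that can bind plasminogen, were higher. Eno1 has a near-identical copy in the genome and its counts are uncertain. The plasminogen receptor Plgrkt was lower (-1.63, SE 0.114), but not with the length offset (-0.03, adjusted p = 0.821, range over its alternatives 5.1e-28 to 0.821). Serpine2, an inhibitor of plasminogen activators, and Serpinf2, the plasmin inhibitor, had 0 counts with DMSO and were at least 65.3-fold and 444-fold higher in the primary cells. Of 19 tested ADAM and ADAMTS proteases 7 were higher and 10 lower. Of these 19, 6 passed the count filter only through the primary cells, Adamts1, Adamts2 and Adamts12 among them. Adamts4 passed it only through the line, so the direction of these genes was in part set by the filter. The aggrecanase Adamts4 had 0 counts at 2 months and was at least 141-fold higher in the line, while Adamts1, another aggrecanase, fell from 113 ± 18.3 CPM at 2 months to 0.134 ± 0.125 in the line. Adamts7 (3.13, SE 0.129) and Adam19 (3.54, SE 0.252) were higher in the line, and Adamts2 (-6.66, SE 0.322) and Adamts12 (-5.23, SE 0.289) lower.

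The comparison of hymeglusin with DMSO asked how the inhibitor changed these genes in MLTC-1, and it shares its DMSO libraries with the comparison above. Plau rose most firmly of the 9, and Mmp14 and Plaur rose and Timp3 fell by small amounts. Of 12873 genes tested, 23.8% rose and 24.5% fell (48.3% in either direction). Of the 9 members 6 passed the count filter (not Mmp2, Timp2 and Plat), of which 3 rose and 1 fell, in a comparison where about as many genes were called as not. Mmp9 passed the filter only through its level with hymeglusin. Values of the members and the listed proteolysis genes in the next paragraphs are CPM on the scale of each comparison's own libraries. This moves them by a few percent from the levels above. Values of cell markers and of the genes most like each member are on the scale of all 10 libraries.

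Plau, the urokinase, stood at 26.6, 24.0 and 27.0 CPM in the DMSO libraries and at 36.0, 38.6 and 38.2 CPM with hymeglusin. The groups did not overlap, and Plau rose 1.46-fold (log2 0.55, SE 0.072, adjusted p = 8.51e-08). Plaur, its receptor, stood at 21.5, 20.2 and 21.2 CPM with DMSO and 25.5, 22.5 and 24.4 CPM with hymeglusin, again without overlap (log2 0.21, SE 0.0796, adjusted p = 0.0314). Per kilobase, the ratio of Plau to Plaur was 1.21 to 1.48 with hymeglusin, above all DMSO libraries. Plat, the other activator, was at or under 3 counts in each DMSO library and at 6 or 7 counts in each hymeglusin library, 8.29-fold higher in sum (95% exact counting interval 2.00 to 73.4). Fitted with no count filter, Plat had an adjusted p of 0.0818.

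Mmp14 stood at 35.7, 36.0 and 39.1 CPM with DMSO and 42.7, 40.4 and 40.5 CPM with hymeglusin. The groups were apart by little, and the rise was 1.12-fold (log2 0.16, SE 0.0657, adjusted p = 0.0444). Timp3 stood at 211, 215 and 223 CPM with DMSO and 187, 203 and 189.6 CPM with hymeglusin, all below the DMSO values on this scale (log2 -0.16, SE 0.0486, adjusted p = 0.0052). Timp1 stood at 12.8, 14.2 and 12.7 CPM with DMSO and 17.3, 14.7 and 14.1 CPM with hymeglusin. Its groups overlapped and it did not pass the test (0.21, SE 0.0984, adjusted p = 0.078), although it did with the length offset (0.0233, range over its alternatives 0.00754 to 0.533). Mmp9 did not pass (0.54, SE 0.455, adjusted p = 0.341), with overlapping groups.

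The calls of Mmp14 and Plaur rested on small margins. Without DMSO replicate 1, Mmp14 had an adjusted p of 0.121. It had 0.158 without DMSO replicate 2, 0.179 without hymeglusin replicate 1 and 0.0616 without hymeglusin replicate 3, and 0.0567 with DESeq2 (range over its alternatives 0.000956 to 0.633). For Plaur the adjusted p was 0.133 when DMSO replicate 2 was left out, 0.0513 without DMSO replicate 3, 0.155 without hymeglusin replicate 1 and 0.0811 without hymeglusin replicate 3 (range 0.00127 to 0.383). Timp3 lost its call with total-count scaling (log2 -0.06, adjusted p = 0.319, range 0.000587 to 0.869), under which the median of all genes was 0.11. Plau kept its call without any single library, and lost it in 1 fit of all 10 libraries (adjusted p = 0.0829, range 7.11e-12 to 0.0829), as did the other 3. Beside these values, the 8 Leydig cell markers summed to 9214 to 9436 CPM with DMSO and 6669 to 6852 CPM with hymeglusin, the 8 endothelial markers to 76.9 to 82.7 and 102 to 110.4 CPM (nearly all Cdh5, at 77.9 and 101 CPM), and the 11 macrophage markers to 0.546 to 1.10 CPM (7 of them at 0, Adgre1 and Ptprc included) and 2.86 to 3.59 CPM (mostly Csf1r, at 0.245 and 2.43 CPM). Their part in the changes was not tested.

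**Figure D3:**
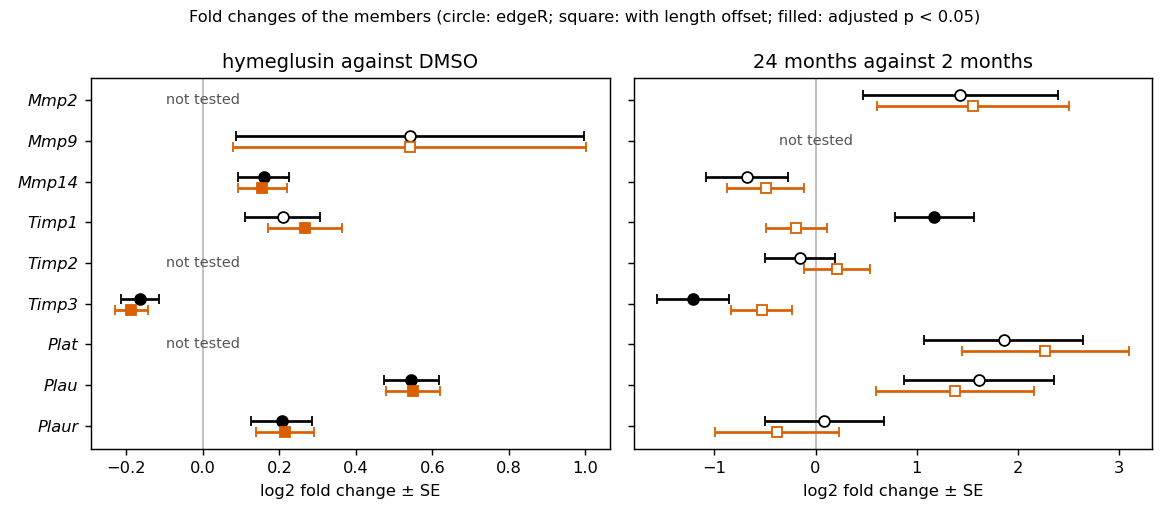
Log2 fold changes (± SE) of the members tested for hymeglusin against DMSO (left, 6 genes, n = 3 each) and 24 against 2 months (right, 8 genes, n = 2 each), the others being marked as not tested, as circles from edgeR and squares with the length offset, filled where the adjusted p is below 0.05. Plau, Plaur, Mmp14 and Timp3 are filled on the left (and Timp1 with the offset), and on the right Timp1 and Timp3 are filled without the offset and no gene with it.

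Of the 20 other metalloproteinases 6 were tested with hymeglusin, of which 5 rose and 0 fell, against 23.8% and 24.5% of all genes. Of these 5, Mmp15, Mmp24 and Mmp28 passed the count filter only through the hymeglusin libraries, where they were higher, so the count is in part set by the filter. Mmp11 and Mmp19 passed it in both groups. Mmp11 rose from 22.7 ± 1.11 to 40.4 ± 1.30 CPM (log2 0.84, SE 0.0714, adjusted p = 4.84e-12), Mmp19 from 1.56 ± 0.600 to 5.70 ± 0.450 CPM (1.89, SE 0.206) and Mmp15, a membrane-bound relative of Mmp14, from 0.199 ± 0.0493 to 0.810 ± 0.0682 CPM (2.02, SE 0.469). Most of these stood at low levels. Of 6 tested inhibitors and activators, 2 rose and 3 fell, against the same 23.8% and 24.5%. The convertases Furin (0.43, SE 0.0651) and Pcsk5 (0.88, SE 0.135) rose. Bsg (-0.43, SE 0.0459), the procollagen protease enhancer Pcolce (-0.24, SE 0.0443) and Spock1 (-1.89, SE 0.358), a proteoglycan that passed the filter only through the DMSO libraries, fell. In 1 fit of all 10 libraries Furin, Bsg and Pcolce lost their calls (adjusted p = 0.0995, 0.206 and 0.71). Mmp11, Mmp19, Mmp15, Pcsk5 and Spock1 kept theirs there.

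In the plasminogen system, 3 of 11 tested genes rose and 4 fell, against 23.8% and 24.5% of all genes. F3, the tissue factor, rose (log2 0.52, SE 0.216, adjusted p = 0.0474), and lost its call in 8 of 15 alternatives (range 0.0158 to 0.474). Serpini1, a neural serpin that inhibits Plat, rose (0.40, SE 0.0899). Eno1 fell by 0.97 (SE 0.0449), and F2r by 0.61 (SE 0.0591) on the log2 scale. Anxa2, which binds Plat and plasminogen, fell by 0.18 (SE 0.0457), but not with total-count scaling (adjusted p = 0.16, range 5.59e-05 to 0.816). Among ADAM and ADAMTS proteases 5 of 14 rose and 3 fell, against the same 23.8% and 24.5%. The shedding protease Adam17 rose (0.25, SE 0.059), as did Adam15 (0.23, SE 0.0593) and Adamts9 (1.26, SE 0.331), which passed the filter only through the hymeglusin libraries. Adamts7 fell from 38.5 ± 1.80 to 21.2 ± 1.54 CPM (-0.86, SE 0.0748), and Adam19 (-0.47, SE 0.119) and Adamts6 (-0.30, SE 0.113) fell. Adamts6 lost its call in 4 of 15 alternatives (adjusted p from 0.022 to 0.82), among them those without DMSO replicate 2 (0.0722) and hymeglusin replicate 2 (0.104). In 1 fit of all 10 libraries Serpini1 (adjusted p = 0.171), F2r (0.276), Adam17 (0.3) and Adam15 (0.317) also lost their calls. So did Adamts9 (0.105) and Adam19 (0.297), while Eno1 and Adamts7 kept theirs.

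The comparison of 24 with 2 months asked how the primary Leydig cells differed with age, and its 2-month libraries also serve in the comparison with the line. Timp1 rose and Timp3 fell, both near the threshold, and the other 6 tested members did not pass. Of 16381 genes tested, 13.5% rose and 15.1% fell (28.6% in either direction). Of the 9 members 8 passed the count filter (not Mmp9), so that 1 rise and 1 fall are close to this background. Plat and Plau passed the filter only through their levels at 24 months.

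At 2 months Timp1 stood at 33.2 and 30.5 CPM, and at 24 months at 96.6 and 47.5 CPM. The groups did not overlap, and Timp1 rose 2.26-fold (log2 1.17, SE 0.391, adjusted p = 0.0498). For Timp3 the young libraries had 247 and 206 CPM and the old ones 75.0 and 121 CPM, also without overlap (log2 -1.21, SE 0.356, adjusted p = 0.0334). Timp2 had 1531 and 1261 CPM in the young and 1481 and 1029 CPM in the old libraries, and the groups overlapped (-0.15, SE 0.348, adjusted p = 0.761). The share of Timp1 in the summed inhibitor level was 7.48% and 8.27% at 2 months and 20.9% and 15.1% at 24 months. That of Timp3 was 10.4% and 10.5%, then 3.03% and 7.17%. These shares were taken without the length offset and include the trend on transcript length given next.

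Fold changes with age followed transcript length over all genes, and the members lay along that trend in part. In the decile of shortest transcripts, which holds Timp1 (883 bases), the median log2 fold change was 1.41, and 814 of 1603 genes rose and 25 fell. In the decile of Timp3 (4722 bases) the median was -0.70, and 384 of 1603 genes fell and 40 rose. With the length offset neither was called, Timp1 at -0.19 (SE 0.304, adjusted p = 0.717, range over its alternatives 5.46e-05 to 0.717) and Timp3 at -0.53 (SE 0.305, adjusted p = 0.254, range 8.21e-05 to 0.326). Under that offset 8.73% of all genes rose and 5.56% fell, and 0 of the 8 tested members passed. None of the 8 was below an adjusted p of 0.0762, that of Plat.

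**Figure D4:**
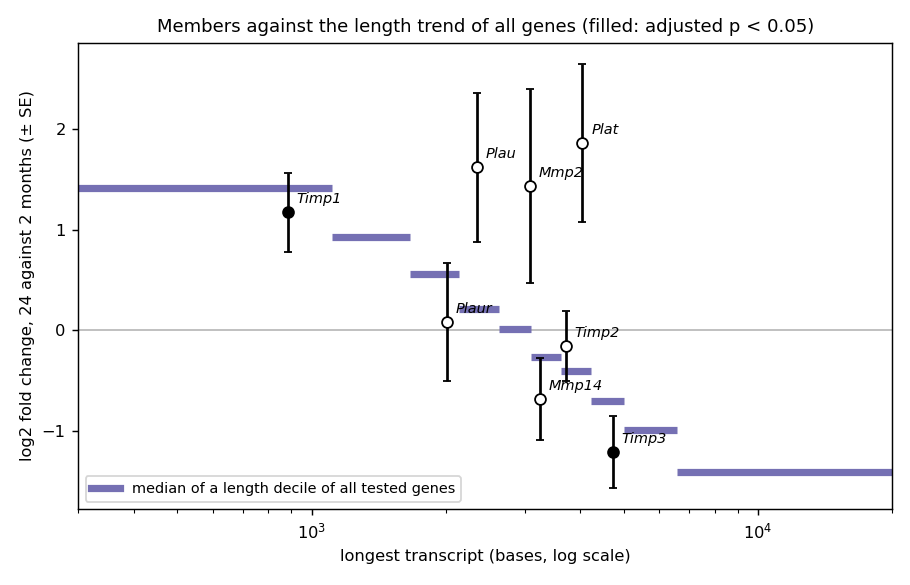
Log2 fold change (± SE) of 8 members at 24 against 2 months by the length of the longest transcript (log axis), with the median of all tested genes in each length decile as horizontal bars. Timp1 lies near the median of the shortest decile (1.41). Plau, Mmp2, Plat and Timp2 lie above the medians of theirs, and Plaur, Mmp14 and Timp3 below. None of those above was called. Plat and Plau passed the count filter only through the 24-month libraries, which favours a place above the median.

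The calls also depended on single libraries. Without 2-month replicate 1 or 2, which leaves the spread to the 24-month pair, Timp1 was at an adjusted p of 0.305 and 0.323 and Timp3 at 0.326 and 0.171. Without 24-month replicate 1, Timp1 was at a log2 fold change of 0.53 (adjusted p = 0.0345) and Timp3 at -0.95 (0.00215). Without 24-month replicate 2 they stood at 1.54 (5.46e-05) and -1.65 (8.21e-05). Timp1 also lost its call with limma-voom (0.0513), and both did with total-count scaling (0.115 and 0.0605), under which the median of all genes was -0.21. Timp3 further lost it with upper quartile scaling (0.0567), under which that median was 0.17.

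Mmp14 had 120.4 and 96.1 CPM in the young and 92.4 and 42.7 CPM in the old libraries. The old libraries were lower, but the fold change (log2 -0.68, SE 0.408) did not pass (adjusted p = 0.226). It passed without 24-month replicate 1 (-1.39, adjusted p = 0.000425, range over its alternatives 0.000425 to 0.693). Plau had 0.327 and 0.589 CPM in the young and 0.949 and 1.87 CPM in the old libraries (1.62, SE 0.742, adjusted p = 0.124), and Plat had 0.327 and 0.331, then 0.678 and 1.70 CPM (1.86, SE 0.787, adjusted p = 0.1). Neither activator passed, though in both genes the 24-month libraries were above the 2-month ones. Both genes were tested only through their 24-month levels, and such a filter favours this order. Plat passed without 24-month replicate 1 (2.30, adjusted p = 0.0376, range 0.0376 to 0.489). Plau passed in 1 fit of all 10 libraries (0.00388, range 0.00388 to 0.617).

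Plaur had 1.96 and 1.47 CPM in the young and 2.30 and 1.37 CPM in the old libraries, with overlap (log2 0.08, SE 0.589, adjusted p = 0.925). Mmp2 stood at 0.245 and 0.589, then 2.03 and 0.332 CPM, with overlap (1.43, SE 0.963, adjusted p = 0.276), and it passed without 24-month replicate 2 (2.19, adjusted p = 0.0436, range 0.0436 to 0.797). Mmp9, with 3 counts at 2 months and 16 at 24 months, all 16 in replicate 2, was 7.08-fold higher in sum (95% exact counting interval 2.03 to 37.9).

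Markers of other cells moved beside these values. Of 12 neutrophil markers, cells known as a source of Mmp9, the 11 without Lcn2 summed to 0.953 and 1.19 CPM at 2 months and to 14.8 and 105 CPM in 24-month replicates 1 and 2, while Ly6g and Cxcr2 were at 0 counts in all 4 libraries. At 2 months 8 of the 12 were at 0, S100a8 and S100a9 among them. Lcn2, which dominates the list, stood at 3610.4 ± 316 and 12843 ± 6675 CPM. The 11 macrophage markers summed to 22.4 and 24.0 CPM in the young and 143 and 149 CPM in the old libraries, with none at 0. Cd14 alone went from 8.70 to 95.7 CPM and Lyz2 from 2.88 to 18.9 CPM. C1qa (1.11 and 7.43), C1qb (1.44 and 8.77), C1qc (0.935 and 4.71) and Cd68 (3.05 and 5.77 CPM) were higher too. Adgre1 (0.765 and 0.323), Cd163 (0.569 and 0.464) and Mrc1 (1.63 and 1.61 CPM) were not higher. Of 10 macrophage markers tested 5 rose and 0 fell, against 13.5% and 15.1% of all genes. With the length offset 4 rose and 0 fell, against 8.73% and 5.56%. Adgre1 and Cd163 passed the count filter only through the 2-month libraries. The 7 fibroblast and stromal markers, of cells that make Timp3 and Mmp2, summed to 887 and 905 CPM in the young and 170.4 and 263 CPM in the old libraries, with none at 0. Of these 7, 4 fell and 1 rose, against 15.1% and 13.5% of all genes. With the length offset 3 fell and 0 rose, against 5.56% and 8.73%. Lum passed the count filter only through the 24-month libraries. Col1a2 went from 242 to 11.0 CPM and Pdgfra from 216 to 45.3 CPM, while Tcf21 stood at 47.9 and 48.3, Col1a1 at 1.66 and 2.50 and Lum at 0.220 and 1.74 CPM. Peritubular myoid markers (6 genes) summed to 29.1 and 45.2, then 84.2 and 163 CPM, most of it Actg2 (32.7 and 111 CPM), and endothelial markers (8) to 24.3 and 24.9, then 22.0 and 41.6 CPM. Of 8 Sertoli cell markers, Amhr2 stood at 219 and 329 CPM, and at 94.0 CPM in the line with DMSO. The other 7 were at 0 to 4.30 CPM in the primary groups, with Fshr at 0 counts at 24 months. The part of these cells in the values of the 9 genes was not tested.

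Of the other metalloproteinases, 0 of 7 tested rose with age and 1 fell, Mmp16, a membrane-bound enzyme that passed the filter only through the 2-month libraries (log2 -3.05, SE 0.780, adjusted p = 0.0225), which lost its call with the length offset (0.0635) and without 2-month replicate 1 (0.264, range over its alternatives 0.00143 to 0.264). Of 8 inhibitors and activators 3 fell and 0 rose, while with the length offset 1 fell, Spock2, and 1 rose, the convertase Pcsk6 (log2 1.21, and 0.60 without the offset). Pcsk6 was chosen after its values were seen. Beside the counts of both lists, 13.5% of all genes rose and 15.1% fell, and 8.73% and 5.56% with the length offset. Spock2 fell from 104 ± 1.87 to 27.0 ± 8.04 CPM (-1.95, SE 0.351), and remained called with the length offset (-1.11, adjusted p = 0.0232, range 5.47e-06 to 0.0411). Reck, a membrane-anchored inhibitor of metalloproteinases, stood at 26.0 ± 0.959 and 6.77 ± 5.74 CPM (-1.92, SE 0.556, adjusted p = 0.0318). Its call was lost with the length offset (0.0552) and without 2-month replicate 1 (0.0584) or 2 (0.0523, range 1.92e-05 to 0.0882). Pcsk5 fell (-1.72, SE 0.325), but not with the length offset (-0.40, adjusted p = 0.427, range 3e-05 to 0.427) or without 2-month replicate 1 (0.109).

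In the plasminogen system 4 of 15 tested genes rose and 1 fell, against 13.5% and 15.1% of all genes. The protease inhibitors Serpinb6a (log2 1.52, SE 0.319, adjusted p = 0.013) and Serpine2 (1.74, SE 0.438, adjusted p = 0.0216) and the plasminogen-binding Anxa2 (1.30, SE 0.358, adjusted p = 0.0276) rose, also with the length offset (1.19, 1.96 and 1.01). Without 2-month replicate 1 or 2 their adjusted p was 0.219 and 0.202, 0.218 and 0.203, and 0.282 and 0.33. Lrp1, the receptor that clears complexes of proteases and inhibitors, fell (-1.71, SE 0.326), but stood at 0.20 with the length offset (adjusted p = 0.732, range 1.59e-05 to 0.732) and lost its call without 2-month replicate 1 (0.128) or 2 (0.0538). Of 19 ADAM and ADAMTS proteases 10 fell and 0 rose, against 15.1% of all genes that fell, and with the length offset 4 fell and 1 rose, against 5.56% and 8.73%. Adam19 and Adamts3 passed the count filter only through the 2-month libraries. In the 2 deciles of longest transcripts, 632 of 1602 and 876 of 1603 genes fell. The 1 that rose with the offset was the aggrecanase Adamts5 (log2 2.24), chosen after its values were seen. Adam12 fell from 37.7 ± 2.17 to 5.17 ± 1.66 CPM (-2.86, SE 0.378, adjusted p = 0.0036) and the procollagen protease Adamts2 from 11.6 ± 1.99 to 1.79 ± 0.519 CPM (-2.67, SE 0.449, adjusted p = 0.00783), and both remained called with the offset (-1.56 and -1.43). Adamts15 fell (-2.47, SE 0.464, adjusted p = 0.0101), but not without 2-month replicate 1 (0.0693, range 1.79e-05 to 0.0693).

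The genes most like each abundant member in log2 CPM over the 10 libraries are given as a description, since these libraries share groups and the line differs from the primary cells in most genes. Among 10189 genes ranked, Glul (r = 0.999), Sult1a1 (0.998) and Igfbp4 (0.997) were most like Timp2. Glul stood at 172 CPM with DMSO and 2992 CPM at 2 months. Morc2a, Ddx6 and Map2k4 (r = 0.997 to 0.996) were most like Timp3, and Mrpl48, Rnaseh2a and Nudt8 (0.995 to 0.993) most like Timp1. Abcb1b, Bcl6 and Bcl2l11 (0.997 to 0.995) were most like Plau, and Ncaph2, Tubb5 and Afmid (0.999 to 0.998) most like Plaur. Tctn1, Syne4 and Furin (0.987 to 0.974) were most like Mmp14.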

How the data were processed

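The authors deposited 1 table of raw, not normalized counts by gene symbol. The submitters' processing notes list HISAT2 2.2.1, featureCounts 2.0.6, FastQC 0.12.1, fastp 0.23.4 and the build mm10. For options, strand setting and annotation: not given in the sources used here. The table held 25239 symbols, and 0 value columns belonged to no sample.

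Each comparison was fitted on its own 2 groups with edgeR 4.0.16 in R 4.3.3 (filterByExpr, minimum count 10 and total 15; TMM; robust quasi-likelihood F-test, two-sided; Benjamini-Hochberg over all genes tested; threshold 0.05). SE is the log2 fold change over the square root of F. Alternatives used limma 3.58.1, DESeq2 1.42.0, other scalings and filters, the replicate number as a block, all libraries together, a loess offset (span 0.3) on the longest GENCODE M21 transcript (97.8% to 98.1% of tested genes had one), and leaving out each library. The fit was also run on simulated counts with known changes, with and without a linear trend on transcript length. Its outcome is not given here and is not used for any result.

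All 9 members are described. From each other list, genes named had the smallest adjusted p, up to 3 per direction; 1 gene of the plasminogen system is not reported here. Alike genes had the highest Pearson r (mean log2 CPM at least 2). Members and lists were chosen with earlier results of these data known.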

Additional observations from a re-analysis of the deposited data

How the results depend on the processing

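With hymeglusin, total-count scaling gave 4659 genes higher and 1996 lower (70.0% higher, against 49.4%, 3069 and 3149, with TMM) and 0 members lower; 1 fit of all 10 libraries gave 645 and 289 genes and 0 members in either direction, and no count filter gave 1 member higher. Leaving out each library gave 2644 to 2913 genes higher and 2753 to 3074 lower, with 1 to 3 members higher and 1 lower.

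With age, total-count scaling gave 531 genes higher and 1301 lower (29.0% higher, against 47.3%, 2214 and 2471), 1 fit of all libraries 4309 and 4559, and the length offset 1430 and 911 (61.1% higher). The split was 59.6% higher with upper quartile scaling. Members called higher numbered 0 with total-count scaling, limma-voom and the offset and 2 in 1 fit of all libraries. Members called lower numbered 0 with upper quartile scaling, total-count scaling and the offset. Leaving out each library gave 239 to 4259 genes higher and 602 to 5628 lower, and 0 to 2 members in each direction. Leaving out 1 of these libraries leaves 1 in its group, assumed to vary like the other pair.

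Directions turned with age for Timp2 (log2 0.036 with upper quartile scaling, 0.21 with the offset, 0.030 without 24-month replicate 2, and -0.49 without 24-month replicate 1), Plaur (-0.14 with total counts, -0.38 with the offset, -0.13 without 2-month replicate 2, -0.37 without 24-month replicate 1, and up to 0.37 without 24-month replicate 2) and Mmp2 (-0.40 without 24-month replicate 1). None of these was called, except Mmp2 without 24-month replicate 2 (2.19). They also turned for Timp1 (-0.19) and Lrp1 (0.20) with the offset, and for Timp1 between line and primary cells (0.57). In that comparison the filter at 10 CPM, which tests fewer genes, gave 4980 genes lower, against 7797. Other causes were not tested.

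Same-numbered replicates did not deviate together (r = -0.0168, -0.0358 and 0.104 with hymeglusin, -0.027 with age), so the numbers were not taken to pair samples. With the replicate block, 3127 genes were higher and 3233 lower with hymeglusin, 2088 and 2686 with age, and 5305 and 7501 between line and primary cells, and the counts of members called were equal to those without it in all 3 comparisons. Not every DMSO and hymeglusin library correlated best with its own number. Depth limits Mmp2, Mmp9 and Plat in every group, and Timp2 in the line.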
